A study of Homo sapiens with 96 samples.

Results

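LUCAT1 is a long non-coding RNA, and the experiment described here lowered it in asynchronous hTERT-RPE1 cells. This established human line comes from the pigment epithelium of the retina and was immortalised with telomerase. The comparison uses 5 of the 96 samples of the series: 3 libraries labelled LUCAT1 knockdown (LUCAT1_KD_Async replicates 1, 2 and 3) and 2 control libraries (Control_Async replicates 1 and 2). They were chosen by their labels, as the columns of a single deposited table of RPKM (reads scaled to gene length and library size). Per the labels, cells of both groups were left unsynchronised and received 130 to 150 pmol of LNA GapmeRs with Lipofectamine RNAiMAX. GapmeRs are antisense oligonucleotides that direct RNase H to a chosen RNA, and the labels do not say which GapmeR the asynchronous controls received. The same knockdown was also made in cells synchronised with 400 µM mimosine, which holds cells before S phase, for 22 h; its 16 libraries (8 control, 8 knockdown, at points labelled S0, S2, S4 and S6) have their own controls and are used here only for comparison. The libraries were strand-specific, and the labels call their RNA nascent in one field and total in another. Whether the replicates are separate cultures is not stated, so each p-value reflects only the variation among these libraries, which could be technical.

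LUCAT1 was first described in the airway epithelium of smokers, is known as a target of the oxidative stress factor NRF2, and has been linked in immune cells to the restraint of interferon genes. The series asks what non-coding RNAs enriched in S phase do to gene expression and cell cycle progression. Cells answer stress and DNA damage partly through p53. Its targets include CDKN1A and BTG2, which restrain the cell cycle, and MDM2, which degrades p53. Replication-dependent histone genes are switched on in S phase, when new DNA is packaged. TGF-beta and the YAP/TEAD pathway drive genes of the cytoskeleton and of the extracellular matrix in adherent cells such as this line.

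In RefSeq (GRCh38.p14, the same build family as the hg38 named in the submitters' processing notes) LUCAT1 is a lncRNA gene on the minus strand of chromosome 5, from 91302986 to 91314402. It lies between ADGRV1, whose end is 139 kb away, and ARRDC3, whose nearest end is 54.2 kb away. The stretch around its start, chr5:91314353-91314652 on the minus strand, holds 1 match to TGANTCA, the letters bound by AP-1 and, in a longer form, by NRF2 with its small MAF partners. It is printed because LUCAT1 is the targeted gene, with that match in capitals, from 250 bases before the start to 50 after it.
LUCAT1: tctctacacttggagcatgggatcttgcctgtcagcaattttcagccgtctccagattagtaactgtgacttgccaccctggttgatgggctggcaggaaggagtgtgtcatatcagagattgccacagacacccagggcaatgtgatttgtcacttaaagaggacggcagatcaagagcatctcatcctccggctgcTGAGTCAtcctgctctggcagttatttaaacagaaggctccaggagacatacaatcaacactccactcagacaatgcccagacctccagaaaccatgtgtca
TGANTCA on either strand was held by 2120 of the 27305 promoters of the RefSeq table, or 7.76%.

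LUCAT1 was lower in every knockdown library than in both controls, but not to the same degree. It stood at 0.469 and 0.495 RPKM in the controls and at 0.311, 0.128 and 0.124 RPKM in knockdown replicates 1, 2 and 3. Replicate 1 thus kept 64.6% of the control mean, replicate 2 kept 26.6% and replicate 3 kept 25.7%. The groups did not overlap, and replicate 1 lay between the controls and the other knockdown libraries. The reads behind these values were 206 and 137 in the controls and 96, 46 and 58 in the knockdown libraries. An exact two-sided permutation test of 3 against 2 libraries gave p = 0.2, the smallest it can give. LUCAT1 was under the filter of at least 0.5 RPKM in at least 2 libraries that a gene needed to be tested. In the limma fit with no filter its log2 difference was -0.77 (SE 0.208, adjusted p = 0.127) with 5 libraries. Without replicate 1 it was -0.96, given as a description with no test, since that library was set aside for its LUCAT1 level. In synchronised cells, where LUCAT1 passed the filter, it fell by 0.98 on the log2 scale (SE 0.138, adjusted p = 0.00127, limma). The level in synchronised controls ran from 0.44 to 0.994 RPKM with a median of 0.675, and in the 8 knockdown libraries from 0.133 to 0.379 with a median of 0.225, with no overlap. Its control and knockdown means were 0.896 and 0.235 RPKM at S0, 0.665 and 0.279 at S2, 0.559 and 0.225 at S4, and 0.751 and 0.221 at S6, so the knockdown was lower at every point.

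MIAT, another long non-coding RNA that the series targets in separate samples, also had lower values under LUCAT1 knockdown. It stood at 0.393 and 0.357 RPKM in the controls and at 0.258, 0.0936 and 0.147 RPKM in replicates 1, 2 and 3. That is 68.9%, 25% and 39.2% of the control mean, again with replicate 1 nearest to the controls. In the libraries with MIAT as the target, MIAT stood at 0.152, 0.0561 and 0.0766 RPKM, in a table that was scaled separately. MIAT was under the filter, and without it the limma fit of 5 libraries gave -0.60 (SE 0.182, adjusted p = 0.145). Without replicate 1 it gave -0.76 (SE 0.0987, adjusted p = 0.00248). The exact two-sided permutation test of all 5 libraries gave p = 0.2, the smallest it can give. In synchronised cells MIAT ran from 0.243 to 0.324 RPKM in the controls. It ran from 0.0958 to 0.334 RPKM in the LUCAT1 knockdown libraries there, so those groups overlapped. LINC00704, named MANCR in the table and the third target of the series, stood at 1.81 and 2.02 RPKM in the controls and at 1.37, 3.23 and 2.14 RPKM in the LUCAT1 knockdown libraries, so the groups overlapped. LUCAT1 itself stood at 0.670, 0.834 and 0.765 RPKM with MIAT as the target and at 1.07, 0.784 and 0.802 RPKM with LINC00704 as the target, all above the controls, which those comparisons share.

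Knockdown replicate 1 also stood apart across the transcriptome. Over the 9548 genes tested, its log2 values had Pearson correlations of 0.965 and 0.960 with the controls but 0.886 and 0.920 with knockdown replicates 2 and 3, which had 0.978 with each other. The controls had 0.993 with each other. On the first principal component (73.6% of the variance) the controls lay at -31.9 and -29.3, replicate 1 at -15.6, and replicates 2 and 3 at 42.2 and 34.7. Reads recovered from the RPKM steps came to 42153610 and 27271573 on genes in the controls and to 26391462, 30027991 and 35391091 in the knockdown libraries, so replicate 1 was the shallowest by a small margin. No pair of libraries agreed within sampling noise (chi-square per degree of freedom of 14.4 or more over genes). Calls are therefore given with all 5 libraries and without replicate 1, while shares by kind of gene are given without replicate 1, beside its own medians. Leaving it out follows the level of LUCAT1 in that library, and it was decided with earlier results of these data known.

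**Figure D1:**
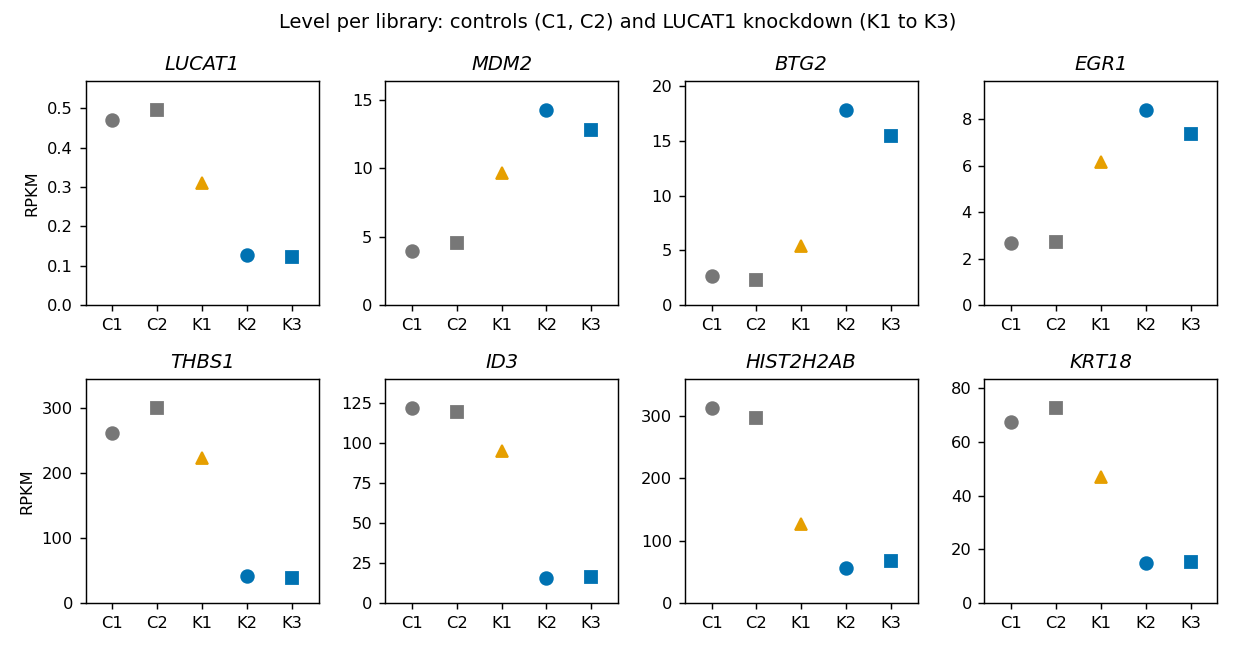
RPKM of 8 genes (vertical axis, linear, from 0) in the 2 control libraries (C1, C2, grey) and LUCAT1 knockdown replicates 1 (K1, orange), 2 and 3 (K2 and K3, blue); each point is 1 library. K1 lies between the controls and the other knockdown libraries in all 8 panels, LUCAT1 included.

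With all 5 libraries, 20 of 9548 genes rose and none fell (limma, adjusted p under 0.05), or 0.209% and 0% of the genes tested. At an unadjusted p under 0.05, 618 genes were higher and 1483 lower, and voom, limma's method for counts, on the recovered reads called 25 higher and 3 lower. Without either control, or without knockdown replicate 2 or 3, none passed in either direction, whereas without replicate 1 the counts were 1748 and 2816. None passed with a pseudocount of 1, with quantile normalization or at 1 RPKM in 2 libraries, and a replicate block gave 244 higher and 243 lower. Over all genes the median log2 difference was -0.10. The 20 genes were weak in the controls, with control means of 0.0353 to 0.872 RPKM (median 0.12). Their knockdown means were 0.618 to 3.7 RPKM (median 1.45), and each of the 20 was above both controls in all 3 knockdown libraries. All but C9orf131 and AL391095.1 were under 0.5 RPKM in a control or both, and so passed the filter only with the help of the knockdown libraries, where they are high. Their values and p are therefore given as a description. Of the 20, 6 were annotated as pseudogenes, whose reads can come from near-identical copies.

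APOE, the apolipoprotein that carries cholesterol between cells, rose from 0.299 and 0.226 RPKM in the controls to 1.52, 1.70 and 1.92 RPKM in knockdown replicates 1 to 3. Its log2 difference was 1.94 (SE 0.182, adjusted p = 0.0403). GPBAR1, the cell surface receptor for bile acids, rose from 0.178 and 0.122 RPKM to 1.45, 1.43 and 1.66 RPKM. VHLL, a gene resembling the von Hippel-Lindau tumour suppressor, rose from 0.0766 and 0.122 RPKM to 2.24, 1.46 and 1.54 RPKM. The controls of VHLL held 2 reads each, against 41, 31 and 43 in the knockdown libraries. GSTO2, a glutathione transferase of the omega class, rose from 0.533 and 0.468 RPKM to 2.95, 2.51 and 2.07 RPKM. AOC3, a copper amine oxidase of the cell surface, rose from 0.0336 and 0.0473 RPKM to 0.701, 1.30 and 1.24 RPKM. In each of these genes the lowest knockdown library was well above the higher control. The rule for naming them required every knockdown library to lie on the same side of both controls, so this separation is a description.

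RNF151, which encodes a RING finger protein, stood at 0.0722 and 0.0763 RPKM in the controls and rose to 1.47, 1.09 and 1.59 RPKM. C9orf131 rose from 0.846 and 0.898 RPKM to 2.76, 2.56 and 2.85 RPKM, and had the highest control mean of the 20 (0.872 RPKM). Of the 20, 15 had a knockdown mean of at least 1 RPKM. The pseudogenes and unnamed genes among these 15 were PRXL2AP2, PPIAP16, AC021148.1, AC107081.3, AL391095.1, RPS4XP1, KRT18P4 and AC010422.2. Their log2 differences ran from 1.47 (AC010422.2) to 2.31 (AC021148.1) for those with reads in both controls. PRXL2AP2 and PPIAP16 had 2 reads in control 1 and none in control 2, so no fold is given for them. In replicates 1, 2 and 3 PRXL2AP2 had 38, 90 and 137 reads and PPIAP16 had 38, 40 and 27. The other 5 genes called had knockdown means under 1 RPKM and included the integrin subunit gene ITGA2B, the receptor gene IL12RB2, the growth factor gene FGF8, and IDI2-AS1.

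**Figure D2:**
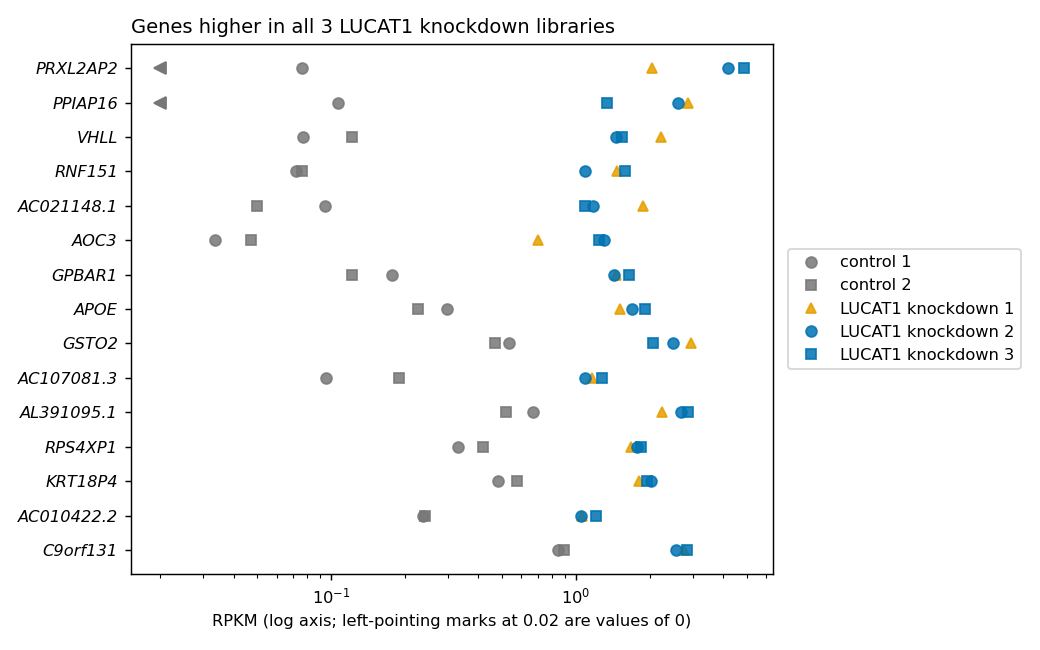
RPKM (horizontal log axis) of the 15 genes called with all 5 libraries whose knockdown mean was at least 1 RPKM. Grey points are controls, the orange triangle is knockdown replicate 1 and blue points are replicates 2 and 3. Values of 0 are drawn as left-pointing marks. All 3 knockdown libraries lie to the right of both controls for each gene, as the rule for naming these rises required.

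The same genes were read in synchronised cells, whose libraries and controls are separate. There 1881 of 9866 genes rose (19.1%) and 800 fell (8.11%), or 923 and 1156 with quantile normalization. Of the 20 genes, 18 passed the filter there, and 18 of these 18 rose. A gene this weak passes that filter mainly through the libraries where it is high, so the count is given as a description. VHLL, for example, had a mean of 0.0745 RPKM in the 8 synchronised controls and 1.33 RPKM in the 8 knockdown libraries.

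Values of the 20 genes under the other asynchronous knockdowns share the same 2 controls, so the comparisons are not independent. Under MIAT knockdown 18 of the 20 were tested, with log2 differences from 0.596 to 2.89 (median 1.54), all above 0. Since the shared controls are low, most of these genes could be tested only where that knockdown was high, so the sign is largely set by the filter. Under LINC00704 knockdown 4 were tested, from 0.0992 to 0.643. APOE stood at 1.07, 1.05 and 0.896 RPKM in the MIAT knockdown libraries and at 0.457, 0.874 and 0.166 RPKM in those of LINC00704. GPBAR1 stood at 1.22, 2.01 and 1.44 RPKM with MIAT as the target. The APOE values with MIAT as the target are all below those of the LUCAT1 knockdown, while for GPBAR1 1 lies below, 1 within and 1 above that range.

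No gene fell at the threshold with 5 libraries. The 10 lower genes with the smallest p, none of which passed, included OLFML2A, MEX3B, MIR210HG and 6 histone genes, with adjusted p from 0.0511 (OLFML2A) to 0.0676 (MIR210HG). OLFML2A, an olfactomedin-like secreted protein, stood at 1.35 and 1.18 RPKM in the controls and at 0.365, 0.290 and 0.310 RPKM in the knockdown libraries. MEX3B, an RNA-binding protein, stood at 9.71 and 8.64 RPKM against 3.46, 2.78 and 2.96 RPKM. In both genes replicate 1 was below both controls and near the other knockdown libraries.

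Without replicate 1, 1748 of 9430 genes rose (18.5%) and 2816 fell (29.9%). Scaling each library to a common median, which shifts the median log2 difference from -0.0965 to 0, gave 2359 higher and 2337 lower, so the excess of falls depends on the scaling. Leaving out control 1 as well gave 984 higher and 1378 lower, and leaving out control 2 gave 1088 and 1441. Among the 2816 genes that fell, replicate 1 was below both controls for 2090 (74.2%), against 59.4% of all genes tested. Among the 1748 that rose, it was above both controls for 956 (54.7%), against 26.3% of all genes tested. Its median log2 difference over the 2 sets was -0.241 and 0.079, where replicates 2 and 3 had -0.778 and 0.739. These shares use the same controls as the calls. Genes under 0.5 RPKM in both controls could pass the filter only through the knockdown libraries, so their rises are a description.

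The largest rises that needed replicate 1 to be left out included AMH and PMAIP1. AMH, the anti-Müllerian hormone of the TGF-beta superfamily, stood at 0.356 and 0.520 RPKM in the controls and at 2.80, 8.66 and 9.69 RPKM in replicates 1, 2 and 3. It rose by 3.78 on the log2 scale without replicate 1 (SE 0.166, adjusted p = 0.000235). AMH was under 0.5 RPKM in a control and passed the filter only with the help of the knockdown libraries. PMAIP1, which encodes the pro-apoptotic protein NOXA, stood at 3.23 and 4.20 RPKM against 4.70, 48.9 and 31.6 RPKM, so replicate 1 was close to the controls. It rose by 3.33 without replicate 1 (SE 0.236, adjusted p = 0.000343). The other 3 of the 5 largest were the pseudogenes PRADC1P1 and ZNF603P and the antisense gene AP003392.6.

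The largest falls were FOXS1, DDIT4, MIR138-1, PDGFRB and EFEMP1. FOXS1, a forkhead transcription factor gene, stood at 5.77 and 7.29 RPKM in the controls and at 2.24, 0.193 and 0.368 RPKM in replicates 1 to 3. DDIT4, which encodes an inhibitor of mTORC1 signalling, stood at 27.8 and 20.5 RPKM against 19.7, 1.73 and 2.76 RPKM. PDGFRB, a receptor for platelet-derived growth factor, stood at 5.99 and 4.95 RPKM against 1.80, 0.376 and 0.417 RPKM. EFEMP1, which encodes the matrix protein fibulin-3, stood at 3.77 and 3.89 RPKM against 1.79, 0.293 and 0.217 RPKM. Replicates 2 and 3 lay far below both controls in all 4 genes, while replicate 1 lay between.

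The microRNA gene MIR138-1 (GRCh38.p14, chromosome 3, 44114212 to 44114310) stood at 19.1 and 18.7 RPKM in the controls and at 14.2, 0.642 and 4.41 RPKM in replicates 1, 2 and 3. It fell by 3.23 without replicate 1 (SE 0.684, adjusted p = 0.00998). Only 73, 45, 38, 2 and 18 reads lie behind these values, and reads over a hairpin in such libraries come from its precursor or host transcript, so they do not measure the mature microRNA. Its 5p mature product in RefSeq is printed with the seed (bases 2 to 8) in capitals, since it is the only microRNA gene among the largest changes.
hsa-miR-138-5p: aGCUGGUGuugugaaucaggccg

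Most p53 targets rose without replicate 1. Of 23 tested, 16 rose and 1 fell, with a median log2 difference of 1.03, against 18.5% rising and a median of -0.0965 over all genes. With 5 libraries 0 of 23 passed. At an unadjusted p under 0.05, 13 were higher and 1 lower, against 618 and 1483 of 9548 over all genes. MDM2, the ubiquitin ligase that p53 induces and that degrades p53, stood at 3.95 and 4.54 RPKM in the controls and at 9.66, 14.3 and 12.8 RPKM in replicates 1, 2 and 3. It rose by 1.62 without replicate 1 (SE 0.139, adjusted p = 0.000512). BTG2, an antiproliferative gene, stood at 2.71 and 2.32 RPKM against 5.38, 17.8 and 15.5 RPKM, and rose by 2.61 (SE 0.146, adjusted p = 0.000235). SESN2, a stress-induced regulator of metabolism, stood at 1.39 and 1.19 RPKM against 3.20, 3.96 and 4.17 RPKM. In these 3 genes replicate 1 was above both controls and below the other knockdown libraries, as in 13 of the 16 that rose. The same held for 785 of all 1748 genes that rose.

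Other p53 targets with large rises act in DNA repair or metabolism. RRM2B, a subunit of ribonucleotide reductase, stood at 1.23 and 1.44 RPKM in the controls and at 1.80, 6.61 and 4.71 RPKM in replicates 1 to 3. TIGAR, a fructose bisphosphatase, stood at 0.732 and 0.918 RPKM against 1.09, 4.04 and 3.05 RPKM. DDB2, a damage sensor of nucleotide excision repair, stood at 0.766 and 0.652 RPKM against 1.00, 2.48 and 2.88 RPKM. CDKN1A, the cell cycle inhibitor p21, was named after its values were seen, as were PLK2, AEN and FDXR: at 36.1 and 33.1 RPKM against 58.4, 44.3 and 45.8 RPKM, it was highest in replicate 1, and it rose by only 0.38 without that library (SE 0.127, adjusted p = 0.0469). PLK2 was the member that fell, from 135 and 157 RPKM to 107 and 74.9 RPKM in replicates 2 and 3, with 98.2 RPKM in replicate 1. AEN, an exonuclease gene of the same list that rose, holds a p53 half-site 24 bases before its start, shown in capitals (GRCh38.p14, chromosome 15, 88621296 to 88621325).
AEN: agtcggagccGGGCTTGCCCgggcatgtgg
Matched by symbol, 19 of the 23 tested targets had a promoter in RefSeq, and 3 of these (15.8%) held the half-site on either strand. Beside AEN these were FDXR, which rose, and PLK2, which fell. The share was 6.54% of all promoters and 5.13% of those of the genes tested. It was 4.94% for genes that rose and 4.95% for genes that fell. So few promoters make these shares a description.

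Immediate early and MAPK feedback genes also tended upward in this fit. Of 20 tested, 11 rose (55%) and 1 fell (5%), with a median of 0.600, against 18.5% and 29.9% over all genes. EGR1, a growth-induced zinc finger factor, stood at 2.69 and 2.73 RPKM in the controls and at 6.15, 8.37 and 7.34 RPKM in replicates 1 to 3, and rose by 1.45 (SE 0.134, adjusted p = 0.000638). SPRY4, a feedback inhibitor of the pathway, stood at 0.604 and 0.620 RPKM against 0.777, 3.08 and 2.55 RPKM. DUSP5 and DUSP6, phosphatases that switch off ERK, rose by 1.6 and 1.23. KLF4, which also rose, was under 0.5 RPKM in both controls and passed the filter only through the knockdown libraries. With 5 libraries none of the 20 passed, and 6 were higher and 1 lower at an unadjusted p under 0.05. The counts over all 9548 genes were 618 and 1483.

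Among NF-kB and cytokine genes 10 of 16 rose (62.5%) and 2 fell (12.5%) without replicate 1, with a median of 0.524, against 18.5% and 29.9% over all genes. CXCL8, the neutrophil chemokine IL-8, stood at 0.403 and 0.128 RPKM in the controls and at 0.413, 3.86 and 2.3 RPKM in replicates 1, 2 and 3. TNFAIP3, an inhibitor of NF-kB, stood at 0.790 and 0.688 RPKM against 1.28, 4.53 and 4.24 RPKM. CCL2, the monocyte chemokine, went the other way, at 2.81 and 1.84 RPKM against 3.73, 0.364 and 0.227 RPKM. Replicate 1 was thus on the other side of the controls from replicates 2 and 3 for CCL2 and beside the controls for CXCL8. Among those that rose, CXCL8, RELB and CXCL3 were under 0.5 RPKM in both controls. They passed the filter only through the knockdown libraries, so these rises are given as a description. With 5 libraries none of the 16 passed, and 4 were higher and 1 lower at an unadjusted p under 0.05. By that measure 618 of all 9548 genes were higher and 1483 lower.

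Extracellular matrix genes fell. Of 22 tested without replicate 1, 19 fell and none rose, with a median of -1.31, against 29.9% falling over all genes. Replicate 1 was below both controls for 20 of the 22, against 59.4% of all genes tested, with a median of -0.523. THBS1, the adhesive matrix protein thrombospondin-1, stood at 261 and 300.3 RPKM in the controls and at 224, 41.6 and 38.4 RPKM in replicates 1, 2 and 3, and fell by 2.80 (SE 0.140, adjusted p = 0.000235). FBN1, the microfibril protein fibrillin-1, stood at 9.08 and 9.17 RPKM against 5.63, 1.62 and 1.62 RPKM. COL4A2, a collagen of basement membranes, stood at 4.41 and 3.83 RPKM against 1.65, 0.741 and 0.879 RPKM. COL8A1 and COL1A1 fell by 1.95 and 1.88. With 5 libraries none of the 22 passed, and 17 were lower at an unadjusted p under 0.05, against 1483 of 9548 genes.

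TGF-beta and YAP response genes fell likewise. Of 16 tested without replicate 1, 14 fell (87.5%) and 1 rose, with a median of -1.43, against 29.9% falling over all genes. In 12 of the 14 replicate 1 lay between the controls and the other libraries. The same held for 1864 of all 2816 genes that fell. ID3, a BMP and TGF-beta target that blocks helix-loop-helix factors, stood at 122 and 119 RPKM in the controls and at 95.1, 15.7 and 16.3 RPKM in replicates 1, 2 and 3. It fell by 2.89 (SE 0.122, adjusted p = 0.000235). TPM1, a tropomyosin of the actin cytoskeleton, stood at 38.9 and 43.1 RPKM against 20.7, 8.50 and 8.73 RPKM. TAGLN, an actin-binding protein of contractile cells, stood at 50.2 and 50.4 RPKM against 27.1, 11.4 and 11.7 RPKM. ANKRD1, a classic YAP target, stood at 97.7 and 126 RPKM against 78.2, 32.1 and 23.5 RPKM. With 5 libraries none of the 16 passed, and 10 were lower at an unadjusted p under 0.05, against 1483 of 9548 genes.

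Promoters of both lists were searched for GGAATG, the letters bound by TEAD, the DNA-binding partner of YAP, on either strand. It was held by 4 of the 16 matrix promoters and 3 of the 12 TGF-beta and YAP promoters found in RefSeq (25% each), against 14.0% of all promoters, 10.7% of those of the genes tested and 11.6% of those of the genes that fell. With so few promoters these shares are a description. Windows of 30 bases before the start are shown for 3 of the genes with the largest falls, with the match in capitals: THBS1 (chromosome 15, 39581021 to 39581050, plus strand), FBN1 (chromosome 15, 48645011 to 48645040, minus strand) and ANKRD1 (chromosome 10, 90921290 to 90921319, minus strand), all GRCh38.p14.
THBS1: gaggaatccccaGGAATGcgagcgcccctt
FBN1: gggttgggcttgGGAATGgggaccgcgagg
ANKRD1: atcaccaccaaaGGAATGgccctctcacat
ANKRD1 held a second match 122 bases before its start.

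Replication-dependent histone genes fell nearly as a block. Of 53 tested without replicate 1, 49 fell (92.5%) and 3 rose, with a median of -1.41, against 29.9% falling over all genes. Replicate 1 had a median of -0.99, beside -1.34 and -1.51 in replicates 2 and 3. It was below both controls for 50 of 53 genes, against 59.4% of all genes tested. With 5 libraries none passed, and 49 were lower and 1 higher at an unadjusted p under 0.05. Of all 9548 genes, 1483 were lower and 618 higher by that measure. The summed level of the 53 genes was 12720 and 13980 RPKM in the controls and 6742, 4989 and 4506 RPKM in replicates 1, 2 and 3. HIST2H2AB, a histone H2A gene, stood at 313 and 298 RPKM against 127, 56.5 and 66.6 RPKM, and fell by 2.31 (SE 0.143, adjusted p = 0.000243). HIST1H2AJ stood at 154 and 148 RPKM against 55.4, 41.0 and 41.3 RPKM. The 3 that rose were HIST1H4I, HIST1H3J and HIST1H3D (the last named after its values were seen), of which HIST1H4I stood at 0.941 and 1.08 RPKM in the controls and at 1.08, 8.42 and 5.27 RPKM in replicates 1 to 3. HIST1H3J, at 0.399 and 0.513 RPKM in the controls, passed the filter only with the help of the knockdown libraries. Histone genes have near-identical copies, and their RNA mostly lacks poly(A) tails. Single values are therefore uncertain and depend on how RNA was selected, a step the sources used here do not give.

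The medians of the cell cycle lists showed a different order of the libraries. Of 48 mitotic and G2/M genes, 13 fell and none rose without replicate 1 (median -0.309), near the share of 29.9% over all genes. In replicate 1, 48 of 48 were below both controls, against 59.4% of all genes tested. Its median of -0.699 was lower than the -0.177 and -0.542 of replicates 2 and 3. Of 44 DNA replication and G1/S genes, 12 fell and 4 rose (median 0.0106), and in replicate 1 all 44 were below both controls with a median of -0.569. KIF20A, a kinesin of cytokinesis, stood at 26.3 and 27.3 RPKM in the controls and at 12.9, 6.25 and 5.39 RPKM in replicates 1 to 3. MCM2, a subunit of the replicative helicase, stood at 17.1 and 16.05 RPKM against 8.68, 5.32 and 6.66 RPKM. In both genes replicate 1 lay between the controls and the other knockdown libraries, unlike the order of the list medians. That held for 6 of the 13 G2/M and 6 of the 12 G1/S genes that fell, against 1864 of all 2816. No gene of either list passed with 5 libraries. Of the 48 and 44 genes, 17 and 12 were lower at an unadjusted p under 0.05, against 1483 of 9548 genes. So the library with the weakest loss of LUCAT1 had the lowest median of both cell cycle lists. The share of cells in each phase was not measured, and in bulk samples fewer cells of a kind and less RNA per cell cannot be told apart.

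Metabolic and stress lists had more falls than rises without replicate 1, beside 29.9% falling and 18.5% rising over all genes. Of 28 ATF4 and unfolded protein response genes 15 fell (53.6%) and 4 rose (14.3%), with a median of -0.621. The lead member, DDIT4, is given above, and ATF3, a stress-induced transcription factor, rose instead, from 0.242 and 0.259 RPKM to 1.67 and 1.49 RPKM in replicates 2 and 3, with 0.390 RPKM in replicate 1. ATF3 was under 0.5 RPKM in both controls and passed the filter only through replicates 2 and 3. Of 23 sterol synthesis genes 13 fell (56.5%) and none rose (median -0.507). DHCR7, a late enzyme of cholesterol synthesis, stood at 3.43 and 2.90 RPKM in the controls and at 2.33, 0.566 and 0.596 RPKM in replicates 1 to 3. Of 22 hypoxia-response genes 12 fell (54.5%) and 2 rose (9.09%), SLC2A1, the glucose transporter GLUT1, falling by 1.48. Of 70 cytosolic ribosomal protein genes 23 fell (32.9%) and 1 rose, a share falling near that over all genes. No member of these 4 lists passed with 5 libraries. At an unadjusted p under 0.05, 2 ATF4 genes were higher and 13 lower, and 9 sterol, 9 hypoxia and 10 ribosomal protein genes were lower. Over all 9548 genes 618 were higher and 1483 lower, and the ribosomal share was near that.

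NRF2 targets and interferon-stimulated genes were listed because of what is known of LUCAT1. Of 19 NRF2 targets 9 fell (47.4%) and 2 rose (10.5%) without replicate 1 (median -0.382), against 29.9% and 18.5% over all genes. NQO1, a quinone reductase, stood at 18.4 and 19.6 RPKM in the controls and at 15.2, 5.47 and 5.17 RPKM in replicates 1, 2 and 3, and fell by 1.79 (SE 0.125, adjusted p = 0.000323). MAFG, a small MAF protein that pairs with NRF2, went the other way, at 3.70 and 3.42 RPKM against 3.47, 10.2 and 10.99 RPKM. Of 15 interferon-stimulated genes 6 fell (40%) and 3 rose (20%), with a median of -0.295, again beside 29.9% and 18.5%. Among them was GBP1, a guanylate-binding protein, falling from 3.64 and 4.16 RPKM to 1.13 and 0.816 RPKM in replicates 2 and 3, with 2.09 RPKM in replicate 1. In replicate 1, 11 of these 15 were above both controls, against 26.3% of all genes tested. Its median of 0.191 had the opposite sign from replicates 2 and 3 (-0.418 and -0.529). HERC5, which rose, was under 0.5 RPKM in both controls and passed the filter only through the knockdown libraries. In neither list did a member pass with 5 libraries. The NRF2 list had 1 higher and 7 lower at an unadjusted p under 0.05, and the interferon list 1 lower. The counts over all 9548 genes were 618 higher and 1483 lower.

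**Figure D3:**
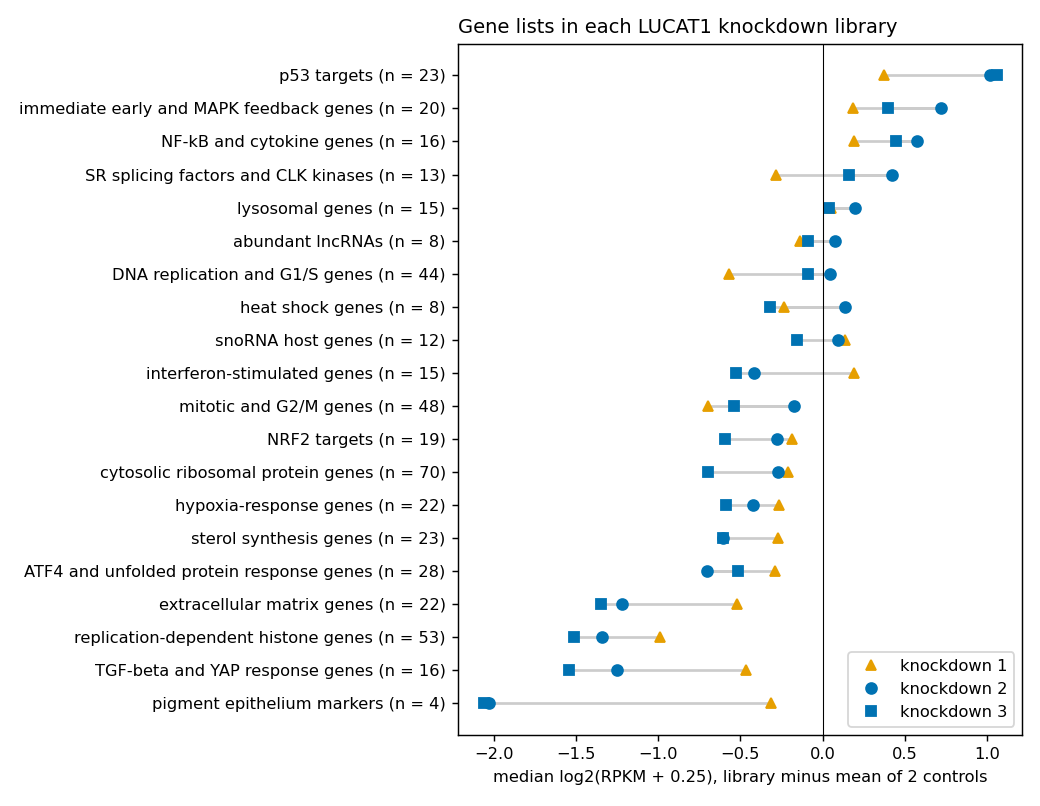
Median over the tested genes of each list of the log2 difference of 1 knockdown library from the mean of the 2 controls (horizontal axis, log2(RPKM + 0.25)); the orange triangle is replicate 1, the blue circle replicate 2 and the blue square replicate 3. Matrix, TGF-beta and YAP genes and pigment epithelium markers lie far to the left in replicates 2 and 3, p53 targets lie to the right, and replicate 1 is leftmost for both cell cycle lists.

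Against 18.5% rising and 29.9% falling over all genes, calls without replicate 1 were counted in 5 further lists. These were the abundant lncRNAs (1 of 8 rose and 1 fell), the snoRNA host genes (2 of 12 rose and 1 fell), the lysosomal genes (4 of 15 rose and 2 fell), the heat shock genes (1 of 8 rose and 2 fell) and the SR splicing factors and CLK kinases (3 of 13 rose and 2 fell). The share rising was 26.7% for lysosomal and 23.1% for splicing genes, above that over all genes in lists of this size, and the shares falling were below it in all 5. NEAT1, the lncRNA that builds paraspeckles, was the abundant lncRNA that rose: it stood at 19.4 and 19.5 RPKM in the controls and at 57.0, 37.0 and 37.8 RPKM in replicates 1 to 3, highest in replicate 1. It rose by 0.93 without replicate 1 (SE 0.121, adjusted p = 0.00173). None of these 5 lists had a member called with 5 libraries. They held 3 higher and 4 lower at an unadjusted p under 0.05, against 618 and 1483 of 9548 over all genes.

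The shares called without replicate 1 are given by kind of gene as a description. Antisense genes rose in 114 of 236 cases (48.3%) with a median of 0.483, and lincRNA genes in 65 of 168 (38.7%) with a median of 0.335. Protein-coding genes rose in 1345 of 8208 cases (16.4%) and fell in 2534 (30.9%), with a median of -0.113. In replicate 1 the medians were 0.0574, 0.194 and -0.146. With genes split by length into 5 equal sets, the shortest set had a median of -0.246 and the longest -0.0802. Weak genes pass the filter more often where they are high, and the part of that in these shares was not tested.

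Genes near LUCAT1 gave few calls. Of 10 measured, 6 passed the filter, and none was called with 5 libraries. Of the 6, 1 was lower at an unadjusted p under 0.05, against 1483 of 9548 over all genes. Only NR2F1 was called without replicate 1, where 29.9% of all genes tested fell. ARRDC3, the nearest tested gene and an adaptor that directs receptors to degradation, stood at 5.51 and 6.58 RPKM in the controls and at 7.01, 10.7 and 7.11 RPKM in replicates 1 to 3 (log2 difference 0.41, SE 0.243, adjusted p = 0.335). In synchronised cells it rose by 1.39 (SE 0.271, adjusted p = 0.00559). NR2F1, an orphan nuclear receptor gene 2270 kb away, stood at 12.2 and 11.9 RPKM against 6.76, 5.15 and 4.36 RPKM and fell by 1.30 without replicate 1 (SE 0.138, adjusted p = 0.000901). In synchronised cells it did not pass (-0.36, SE 0.236, adjusted p = 0.266).

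The markers of the cell type were checked beside these results. Of 14 pigment epithelium markers 9 were measured and 4 passed the filter: KRT8, KRT18, OTX2 and MITF. All 4 fell without replicate 1, against 29.9% of all genes tested. With 5 libraries none passed, and 2 were lower at an unadjusted p under 0.05, against 1483 of 9548 genes. KRT18, an epithelial keratin, stood at 67.3 and 72.6 RPKM in the controls and at 46.7, 14.9 and 15.4 RPKM in replicates 1, 2 and 3. OTX2, a transcription factor that specifies this epithelium, stood at 2.28 and 2.60 RPKM against 2.26, 0.390 and 0.293 RPKM, so replicate 1 was just below the lower control. The summed level of the 9 was 82.8 and 88.3 RPKM in the controls and 58.9, 19.2 and 19.8 RPKM in the knockdown libraries. Of 19 markers of blood, endothelium, liver, other epithelium, nerve and muscle 7 were measured, with sums of 0.343 and 0.339 RPKM in the controls and 0.87, 1.58 and 1.74 RPKM in the knockdown libraries. Only CD14, a monocyte receptor, passed the filter, and only through replicates 2 and 3, where it was high. It stood at 0.0787 and 0.0833 RPKM against 0.374, 1.22 and 1.11 RPKM. These markers move with the matrix and TGF-beta lists, and their part in those results was not tested.

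The calls made without replicate 1 were then read in the synchronised libraries, which share no library with them. Of the 1748 genes that rose, 1599 were tested there, with a median of 0.447; 699 rose (43.7%) and 9 fell. Over all genes tested in both, 19.4% rose and 8.15% fell in synchronised cells. Of the 2816 that fell, 2597 were tested there, with a median of -0.226; 584 fell (22.5%) and 59 rose. These 584 are 81.9% of the 713 genes that fell in synchronised cells among those tested in both. The 699 are 41.3% of the 1693 that rose. The falling and rising sets themselves hold 2597 and 1599 of the 8744 genes tested in both. Of the matrix genes 14 of 22 fell in synchronised cells and none rose, of the TGF-beta and YAP genes 8 of 17 fell and none rose, and of the histone genes 7 of 48 fell and none rose. FBN1 fell by 0.69 (SE 0.171, adjusted p = 0.0147) and ID3 by 1.16 (SE 0.279, adjusted p = 0.0123) in synchronised cells. THBS1 (-0.64, SE 0.272, adjusted p = 0.0936), COL1A1 (-0.57, SE 0.295, adjusted p = 0.161) and ANKRD1 (-0.28, SE 0.251, adjusted p = 0.417) did not pass there (limma).

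p53 targets showed no such rise in synchronised cells. Of 26 tested there, 1 rose and 6 fell, with a median of -0.0751. Over all genes tested in synchronised cells 19.1% rose and 8.11% fell, with a median of 0.109. MDM2 had a log2 difference of -0.04 there (SE 0.182, adjusted p = 0.874), BTG2 -0.13 (SE 0.186, adjusted p = 0.605) and SESN2 -0.11 (SE 0.144, adjusted p = 0.593). CDKN1A fell by 1.05 (SE 0.193, adjusted p = 0.00433). The difference of the effect between asynchronous and synchronised cells was tested for each gene. With all libraries no gene passed in either direction (0% higher and 0% lower of 8819, limma; 116 higher and 779 lower at an unadjusted p under 0.05). Without replicate 1, 20 of 8744 genes had a higher effect in asynchronous cells (0.229%) and 45 a lower effect (0.515%). Of the 23 p53 targets tested for it, 6 were among the 20: BTG2, DDB2, BBC3, MDM2, SESN2 and PPM1D, with differences from 1.39 (PPM1D) to 2.75 (BTG2). Those among the 6 that the rule for named genes does not hold, BBC3 and PPM1D, were named after their values were seen.

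Levels in the 2 tables were scaled separately and are set side by side only as a description. MDM2 had a mean of 21.6 RPKM in the 8 synchronised controls and 21.1 RPKM in the 8 knockdown libraries, against 3.95 and 4.54 RPKM in the asynchronous controls. BTG2 had 13.2 and 11.6 RPKM in synchronised cells, against 2.71 and 2.32 RPKM in the asynchronous controls. DDB2 had 3.07 and 2.70 RPKM, against 0.766 and 0.652 RPKM. The synchronised controls thus listed these targets at levels above the asynchronous controls and, for MDM2 and DDB2, above every asynchronous knockdown library. Mimosine moves with this comparison, and its part was not tested.

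**Figure D4:**
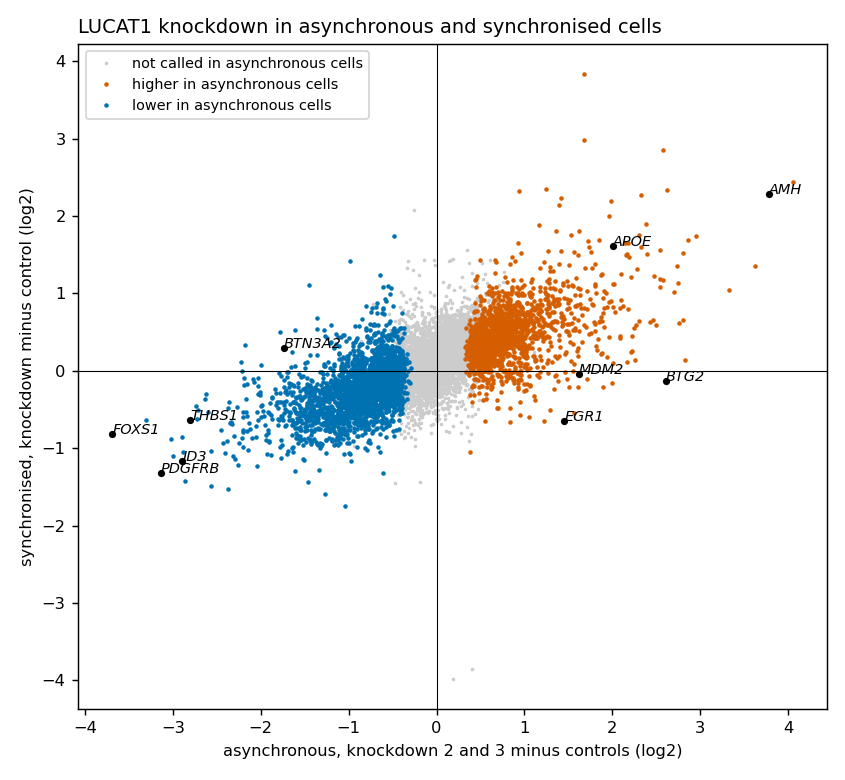
Each point is a gene tested in both tables: log2 difference of LUCAT1 knockdown replicates 2 and 3 from the controls in asynchronous cells (horizontal) and of 8 knockdown from 8 control libraries in synchronised cells (vertical), coloured by the call in asynchronous cells. APOE and AMH lie to the upper right, PDGFRB and ID3 to the lower left, and MDM2, BTG2 and EGR1 to the right at or under the horizontal line.

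A part of the lists is given side by side with the other asynchronous knockdowns, since all share the 2 controls. The median of the p53 targets was 1.03 under LUCAT1 knockdown without replicate 1 (0.836 with 5 libraries), 0.139 under MIAT and 0.290 under LINC00704 knockdown. For histone genes the medians were -1.41 (-1.24 with 5 libraries), -0.762 and -0.428, and for matrix genes -1.31 (-1.05), -0.449 and -0.591. For TGF-beta and YAP genes they were -1.43 (-1.10), -0.302 and -0.258. Other lists did not have their lowest median under LUCAT1 knockdown, or only by a small margin. For DNA replication and G1/S genes the medians were 0.0106 (-0.184), -0.497 and -0.347. For mitotic and G2/M genes they were -0.309 (-0.462), -0.365 and -0.142, and for sterol synthesis genes -0.507 (-0.46), -0.475 and -0.246. THBS1 had log2 differences of -2.80 under LUCAT1 knockdown without replicate 1 (-1.98 with 5 libraries), -0.17 under MIAT and -0.28 under LINC00704 knockdown. Differences between the knockdowns were not tested.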

How the data were processed

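RNA of 5 asynchronous libraries was compared, with 16 synchronised libraries alongside. The authors deposited RPKM per gene and library. Per the submitters' processing notes, STAR 2.5.3, featureCounts 1.6.1, edgeR and HOMER 4.10.3 were used on hg38, with no roles or order stated. Deposited gene lengths are near whole gene spans, introns included. The authors' own fold changes and p-values were not used. Reads were recovered from RPKM times length: below 500 reads, 100.0% of values were whole within 0.05 of a read.

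Genes reaching 0.5 RPKM in 2 or more libraries were tested with limma 3.58.1 (R 4.3.3) on log2(RPKM + 0.25), with a mean trend and Benjamini-Hochberg adjustment; calls have an adjusted p under 0.05. Such differences understate changes of weak genes. Rows sharing a symbol (6) were left out. The synchronised effect is the mean over 4 points, and the difference between settings is an interaction term. The test was checked on simulated data.

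Genes were named by rule: the targets and LUCAT1's neighbours; up to 15 rises and 15 falls called with all libraries; up to 5 called members of each list; where few were called, the smallest p; the 5 largest in each direction called only without replicate 1, and for the difference. Rises and falls called with all libraries also needed every knockdown library beyond both controls on the same side. Their higher group mean had to be at least 1 RPKM. Both conditions also held for genes called only without replicate 1, over the libraries kept. Members and lists were chosen with earlier results of these data known. Lists covered 24 groups; no mitochondrially encoded gene was measured. Alternatives were other pseudocounts, filters and scalings, a replicate block, leaving out libraries, and voom. Promoter and microRNA sequences are from RefSeq (GRCh38.p14), matched by symbol. Some genes that the rule names are not reported here.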

Additional observations from a re-analysis of the deposited data

Results flagged for a closer look

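The effect of LUCAT1 knockdown differed between asynchronous and synchronised cells for single genes when asynchronous replicate 1 was left out, by the limma interaction term over 8744 genes. The 5 largest differences in each direction follow, on the log2 scale as asynchronous minus synchronised, with the adjusted p from that test. BTG2 differed by 2.75 (SE 0.376, adjusted p = 0.00646) and EGR1 by 2.10 (SE 0.343, adjusted p = 0.017). In synchronised cells alone EGR1 fell by 0.65 (SE 0.171, adjusted p = 0.0183, limma). RRAD, a small GTPase gene, differed by 2.10 (SE 0.404, adjusted p = 0.0336), the lncRNA gene AC084082.1 by 2.14 (SE 0.431, adjusted p = 0.0358) and the antisense gene AL591845.1 by 2.12 (SE 0.318, adjusted p = 0.0137).

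In the other direction, FOXS1 differed by -2.87 (SE 0.625, adjusted p = 0.0487), ADAMTS15, a matrix protease gene, by -2.27 (SE 0.495, adjusted p = 0.0487) and the pseudogene EEF1A1P8 by -2.22 (SE 0.461, adjusted p = 0.0402). EFEMP1 differed by -2.13 (SE 0.427, adjusted p = 0.0358) and BTN3A2, a butyrophilin gene, by -2.04 (SE 0.344, adjusted p = 0.0193). BTN3A2 stood at 3.70 and 3.53 RPKM in the asynchronous controls, 3.59 RPKM in replicate 1 and 0.898 and 0.921 RPKM in replicates 2 and 3. With replicate 1 included, none of these differences passed.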

How the results depend on the processing

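With all 5 libraries the call of 20 higher and 0 lower genes rested on the settings. It became 32 and 5 with a pseudocount of 0.1, 0 and 0 with a pseudocount of 1, 46 and 2 with no filter, 0 and 0 at 1 RPKM in 2 libraries, 41 and 4 with median scaling, and 0 and 0 with quantile normalization. Voom, chosen after seeing the data, called 25 and 3. Leaving out 1 library gave from 0 to 1748 higher and from 0 to 2816 lower: each library other than knockdown replicate 1 took both counts to 0, and the cause was not tested. The fit with the replicate block called 244 higher and 243 lower; deviations of same-numbered libraries had correlations of 0.232 and 0.425, but only 2 numbers are shared and the labels name no shared batch, so the numbers were not taken to pair the samples.

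Without replicate 1, the counts of 1748 higher and 2816 lower became 3633 higher with no filter (more genes tested) and 1164 higher at 1 RPKM (fewer genes tested); the other settings stayed within 1.5 times. Leaving out a further library gave 984 to 2273 higher and 1378 to 3466 lower, the lowest without control 1; the lone library of an arm is then assumed to vary like the other group. The 35 genes and 4 list counts followed through these settings kept their direction and their call wherever tested. No paired analysis was possible without replicate 1 because only number 2 is shared, nor in synchronised cells because the knockdown columns carry other numbers than the labels.

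In synchronised cells quantile normalization gave 923 higher against 1881, and leaving out 1 library, added after seeing the data, 1044 to 2603 higher and 402 to 1166 lower, the lowest without 1 of the LUCAT1_KD_S2 libraries. Counts also moved by over 1.5 times without Control_S0 replicate 2, Control_S2 replicate 1 or 2, Control_S4 replicate 1, Control_S6 replicate 1 or 1 of the LUCAT1_KD_S0 libraries (1079 to 1247 higher, 406 to 480 lower), and for falls without Control_S6 replicate 2 (531) or 1 of the LUCAT1_KD_S4 libraries (465). These knockdown columns are tied to a group and to no numbered replicate. For the difference between settings, quantile normalization gave 4 higher against 0, and leaving out 1 asynchronous library 0 to 20 higher and 0 to 45 lower, above 0 only without knockdown replicate 1. Depth limits LUCAT1 itself, which held 206 reads or fewer.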
